A study of Mus musculus with 6 samples.

Results

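Endothelial cells (ECs) rich in the transcripts of Gja4, Stmn2 and Slc6a6 were examined in lungs sorted at E15.5, E18.5 and P8, and are called GSS-high ECs. Their limits were written to pick distal arterial ECs. A cell was taken with at least 700 genes, 0.5% to 10% mitochondrial UMIs, at least 3 summed UMIs of Pecam1, Cdh5 and Cldn5, at most 2 of Col1a1 and Col3a1, and at least 4 of Gja4, Stmn2 and Slc6a6. It also had to hold no Cytl1 or Gkn3 UMI, fewer than 10 Eln UMIs and at most 1 UMI of Mki67 and Top2a. A UMI is a molecular tag that marks 1 captured transcript. These limits selected 16940 of 26285 ECs in the 3 libraries, out of 63659 barcodes in the 6 libraries of the series.

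The study asked how the Cxcl12-expressing arterial endothelium of the growing mouse lung is composed, and 3 values in a row below are for E15.5, E18.5 and P8 unless other ages or groups are named. Lungs of Cxcl12DsRed/+ mice were dissociated at 3 embryonic ages and at P8, and reporter-positive CD31+ cells were sorted after removal of CD45+ and EpCAM+ cells, with reporter-positive CD31- cells also collected, and whole lungs labelled Cxcl12DsRed/+ (control) or Cxcl12DsRed/DsRed (null) were taken at E18.5. In every sorted library DsRed replaced 1 copy of Cxcl12 in its first exon, 2 to 4 lungs were pooled, and the sort itself required activity of the Cxcl12 locus. Each time point had 1 library, so values carry counting intervals at 95% and no p-value, and a difference between time points cannot be told apart from a difference between libraries.

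Arterial ECs are set apart from other ECs by SoxF factors, by Notch ligands and their Hey targets, and by the gap junction proteins that couple neighbouring cells. In the lung, arteries pass blood into a capillary net with general capillary cells, marked by Gpihbp1 and Aplnr, and aerocytes, marked by Car4 and Ednrb, which line the gas exchange surface. CXCL12 is a chemokine that signals through the receptor CXCR4 and is scavenged by ACKR3.

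The genes that the limits turn on lie on mouse build GRCm38 as follows. Gja4, the gap junction protein connexin 37, spans 4:127311421-127314039. Stmn2, a tubulin-binding stathmin, spans 3:8509360-8561606, and Slc6a6, the taurine transporter, spans 6:91684053-91759066. Cxcl12 lies at 6:117168535-117181367 and Alox12, an arachidonate lipoxygenase, at 11:70241457-70255353; neither was part of the limits. The promoter windows of Gja4, Cxcl12 and Alox12, 250 bases before to 50 after the RefSeq start on GRCm38.p6, are shown because all 3 genes were high in GSS-high ECs, Gja4 by choice. Capitals mark the SoxF core ACAAT and the RBPJ core TGGGAA on either strand. Cxcl12 is on the plus strand at chr6:117168285-117168584, Gja4 on the minus strand at chr4:127313990-127314289 and Alox12 on the minus strand at chr11:70255321-70255620.
Cxcl12: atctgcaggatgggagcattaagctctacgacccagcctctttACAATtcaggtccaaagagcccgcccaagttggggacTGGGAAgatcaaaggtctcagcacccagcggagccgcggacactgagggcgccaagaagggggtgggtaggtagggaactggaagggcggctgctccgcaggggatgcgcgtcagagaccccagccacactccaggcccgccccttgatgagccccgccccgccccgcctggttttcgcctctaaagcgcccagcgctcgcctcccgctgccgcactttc
Gja4: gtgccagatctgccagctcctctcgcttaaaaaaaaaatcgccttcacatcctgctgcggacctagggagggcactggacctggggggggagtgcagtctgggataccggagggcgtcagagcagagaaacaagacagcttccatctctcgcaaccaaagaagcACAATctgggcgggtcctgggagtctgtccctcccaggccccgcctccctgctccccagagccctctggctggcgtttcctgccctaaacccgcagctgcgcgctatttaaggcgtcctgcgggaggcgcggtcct
Alox12: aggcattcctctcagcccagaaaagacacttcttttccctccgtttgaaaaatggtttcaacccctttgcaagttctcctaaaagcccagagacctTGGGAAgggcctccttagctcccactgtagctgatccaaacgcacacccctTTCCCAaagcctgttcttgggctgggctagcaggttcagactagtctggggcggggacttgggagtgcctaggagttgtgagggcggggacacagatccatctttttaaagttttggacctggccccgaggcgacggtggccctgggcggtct
The Cxcl12 window held 1 SoxF and 1 RBPJ core, the Gja4 window 1 SoxF core, and the Alox12 window 2 RBPJ cores. Of 32817 RefSeq promoter windows of this length, 31% held the SoxF core, 25.6% the RBPJ core and 96.0% the ETS core GGAA. Of the 29 genes higher than in GSS-low ECs (below), 21 had a window, of which 8 (38.1%) held the SoxF core and 9 (42.9%) the RBPJ core. Of the 17 lower genes, 13 had a window, with 4 (30.8%) and 3 (23.1%). Stmn2, Slc6a6, Sox17 and Hey1 were not matched. For Gja5 the nearest window lay 127709 bases from the annotated start of the gene, held neither the SoxF nor the RBPJ core and is not shown.

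At E15.5, 4833 of 8911 ECs met the limits, a share of 54.2% (exact binomial interval 53.2% to 55.3%). By E18.5 the share was 59.0% (5355 of 9083, from 57.9% to 60%). It was highest in the P8 library, with 6752 of 8291 ECs or 81.4% (80.6% to 82.3%). The median summed Gja4, Stmn2 and Slc6a6 count of a GSS-high EC was 21, 15 and 18, at a median depth of 7975, 5489 and 5574 UMIs. The sum had no gap at the threshold. Just inside it, with a sum of 4, were 179, 318 and 222 cells, and just outside, with a sum of 3, were 162, 406 and 196. After every EC was thinned to 2000 UMIs the share meeting the limits was 41.3%, 43.9% and 65.1%, again highest at P8. The limits on the 3 chosen genes, Cytl1, Gkn3, Eln, Mki67 and Top2a were applied to the thinned counts for this. Among collagen-rich mesenchymal cells, which should lack these genes, 2.06% of 1555, 3.80% of 158 and none of 41 reached a sum of 4. ECs with lymphatic markers (at least 3 UMIs of Prox1, Mmrn1 and Reln) numbered 234, 118 and 4, and 32.5%, 52.5% and, at P8, 3 of the 4 reached it.

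**Figure D1:**
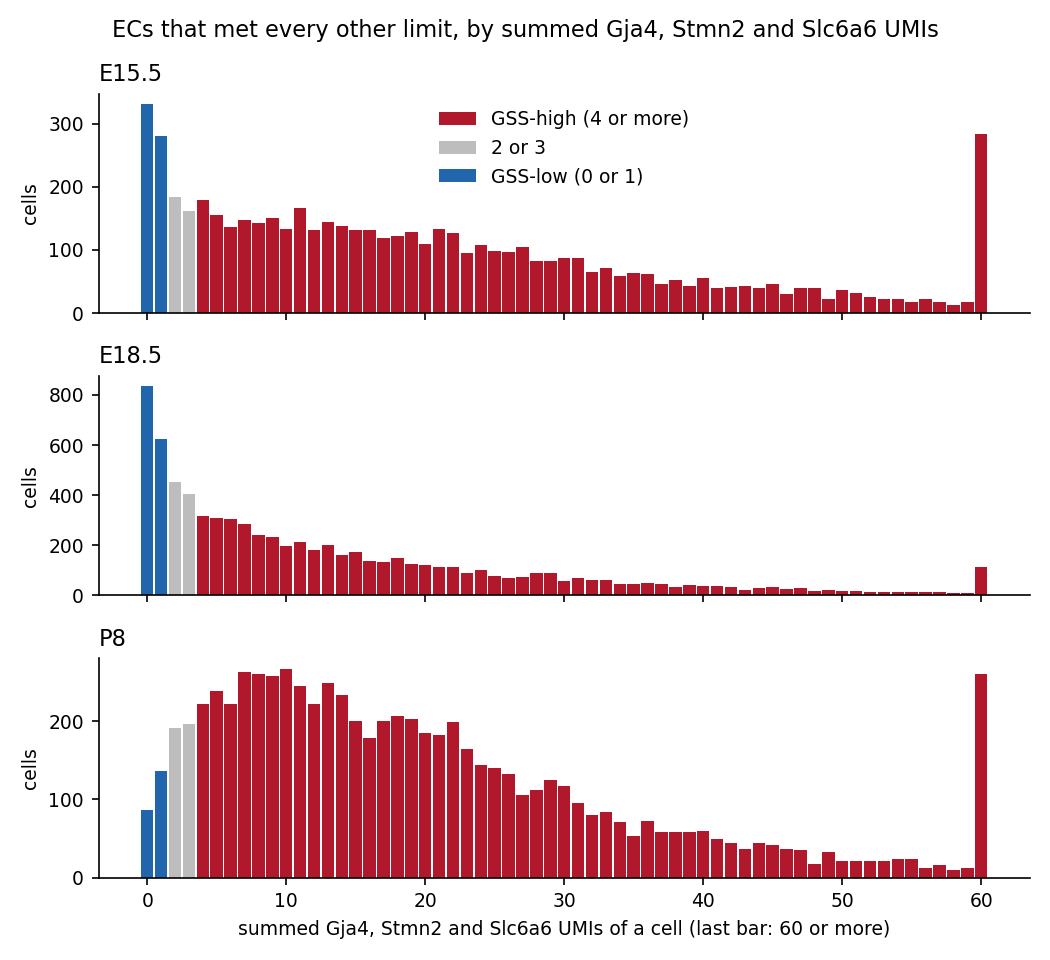
Number of ECs (y axis) at each summed Gja4, Stmn2 and Slc6a6 UMI count (x axis), for ECs that met every other limit, with 1 panel per library; red bars are GSS-high ECs, blue bars GSS-low ECs, grey bars ECs with a sum of 2 or 3, and the last bar pools sums of 60 or more. Cells with a sum of 0 or 1 numbered 612, 1456 and 224 in order of age.

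GSS-high ECs were set against ECs of the same library that met every other limit but held at most 1 UMI of the 3 genes (GSS-low ECs), against ECs rich in Eln with at least 2 UMIs of Cytl1 and Gkn3 (proximal arterial ECs), and against all other ECs. Levels are UMIs of a gene per 1000000 UMIs of the population (CPM), with exact Poisson intervals that cover counting error only. Log2 ratios were taken after 0.5 CPM was added to both levels, and genes were compared where 1 of the populations reached 50 CPM in 1 library. The genes of the limits were left out. Since cells were chosen on their own counts, these ratios describe what accompanies the 3 chosen genes.

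The 3 chosen genes cannot bear out the label and are found in proximal arterial ECs too, with Gja4 in 80.6%, 89.9% and 79.3% of these after thinning. Alox12, which the limits did not use, was 47.5, 76.6 and 11.3 CPM in GSS-high ECs, against 10.4, 16.4 and 5.46 in the other ECs and 8.20, 10.6 and 2.32 in proximal arterial ECs. The study picked Alox12 as its distal marker on the same libraries, so these levels are no independent evidence. In tissue at E15.5 and E18.5, the study located Alox12 transcripts by RNA in situ hybridization in distal and not in more proximal arteries. The capillary genes went against an arterial label, most of all at P8. In cells thinned to 2000 UMIs, Gpihbp1, which anchors lipoprotein lipase on capillary cells, was found in 15.9%, 35.9% and 72.7% of GSS-high ECs. In proximal arterial ECs the shares were 1.46%, 3.82% and 5.70%. In GSS-low ECs they were 39.6%, 67.0% and 76.0%, and in all other ECs 23.2%, 52.3% and 56.2%. The P8 share of GSS-high ECs lay within the interval of the 76.0% of GSS-low ECs (69.0% to 82.0%), which at P8 rests on 179 cells after 45 of 224 below 2000 UMIs were left out. The same share was far above the 5.70% of proximal arterial ECs and the 2.44% of mesenchymal cells of that library, whose median depth before thinning was 7996 UMIs. Car4, the carbonic anhydrase of aerocytes, was found in 0.0207%, 7.53% and 19.8% of GSS-high ECs. At P8 it was found in 24.6% of GSS-low ECs and 16.4% of all other ECs. Unthinned, Gpihbp1 was found in 38.1%, 54.0% and 85.9% of GSS-high ECs. At P8 the limits therefore took most sorted ECs, capillary marker-bearing cells included, and position along the arterial tree was not measured in dissociated cells.

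Markers of other cell types were measured in the same cells. Epcam was 1.13, 0.861 and 0.410 CPM. The 7 immune genes summed to 24.4, 23.7 and 13.7 CPM, with none at 0, against 19, 43.5 and 105 in the other ECs and 5.39, 82.5 and 0 in GSS-low ECs. Ptprc, which encodes CD45, was at most 0.185 CPM in GSS-high ECs, and the macrophage gene Lyz2 was 0.462, 16.2 and 8.78 CPM. The 12 mesenchymal genes summed to 41.5, 24.9 and 29.8 CPM, with 2 of the 12 at 0 at P8, against 87.4, 61.5 and 47.6 in the other ECs. The 6 smooth muscle genes summed to 26.2, 13.9 and 20.0 CPM. Globin and other erythroid genes summed to 465, 1580 and 1100 CPM, against 643, 775 and 221 in the other ECs, and 62.4, 166 and 49.0 in GSS-low ECs. Sftpc, a surfactant gene of the alveolar epithelium, was 0.60, 200 and 81.1 CPM against 9.14, 886 and 1950 in the other ECs. The 7 lymphatic genes summed to 64.1, 536 and 361 CPM, against 288, 1130 and 599 in GSS-low ECs. At P8 most of the sum in GSS-high ECs was Lyve1. It was 303 CPM in those with at least 16 UMIs of the 3 chosen genes and 429 in those with 4 to 7. Ccl21a was 18.5 and 0 CPM in the same cells. The part of all these markers in the differences below was not tested. Libraries shared 25 to 40 barcodes per pair, of which 3 to 17 belonged to GSS-high ECs in both.

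The study names Gja4 and Slc6a6 among the genes that track Cxcl12 in its own cells, so a high Cxcl12 level in cells chosen on these genes, and its order along their sum, are no independent results and are given as a description. Cxcl12 was higher in GSS-high than in GSS-low ECs, with a mean log2 ratio of 4.59, and 1.22 over all other ECs. Its level in GSS-high ECs was 1070, 1750 and 1210 CPM. In GSS-low ECs it was 21.6, 39.6 and 183 CPM. The log2 ratio was 5.6 (counting interval 5.37 to 5.92), then 5.45 (5.31 to 5.64) and, at P8, 2.73 (2.51 to 2.95), where the level in GSS-low ECs was the highest of the 3. Proximal arterial ECs held 754, 1170 and 804 CPM, and the ratio to them was 0.51, 0.59 and 0.59. After thinning, 62.2%, 64.2% and 66.8% of GSS-high ECs had a Cxcl12 UMI, against 3.45%, 4.71% and 17.3% of GSS-low ECs. Mesenchymal cells of the same sort, chosen for the reporter too, had one in 17.2%, 24.7% and 9.76%.

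The 2 receptors of CXCL12 differed in direction in the embryo. Cxcr4 was 49.9, 43.2 and 75.9 CPM in GSS-high ECs, against 13.7, 19.1 and 70.2 in GSS-low ECs. It was thus higher at E15.5 and E18.5, with log2 ratios of 1.83 and 1.16, and at P8 the ratio was 0.11. In proximal arterial ECs Cxcr4 was 8.42, 8.37 and 13.9 CPM, below GSS-high ECs at all 3 times by log2 ratios of 2.5, 2.30 and 2.41. Ackr3 was 15.8, 34.8 and 113 CPM in GSS-high ECs and 53.9, 106 and 161 in GSS-low ECs, with log2 ratios of -1.74, -1.59 and -0.51. Among GSS-high ECs thinned to 2000 UMIs, Cxcr4 was found in 10.0%, 10.1% and 16.8% of cells with a Cxcl12 UMI and in 9.64%, 6.80% and 7.42% of those without. Ackr3 showed the other order, in 1.67%, 3.80% and 15.1% of cells with a Cxcl12 UMI and 4.11%, 8.23% and 23.3% of those without. The binomial intervals of each pair were apart, except for Cxcr4 at E15.5 (8.95% to 11.1% and 8.33% to 11.1%). Cells with an Alox12 UMI carried Cxcr4 more often than those without, in 14.8% against 9.37%, 12.7% against 8.36%, and 31.4% against 13.2%. Mesenchymal cells had Cxcr4 in 3 of 1548 cells at E15.5, or 0.194%, in none of 158 at E18.5 and in 2 of 41 at P8, or 4.88%. They had Ackr3 in 9.04%, 2.53% and 2.44%, so at E15.5 more often than GSS-high ECs.

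**Figure D2:**
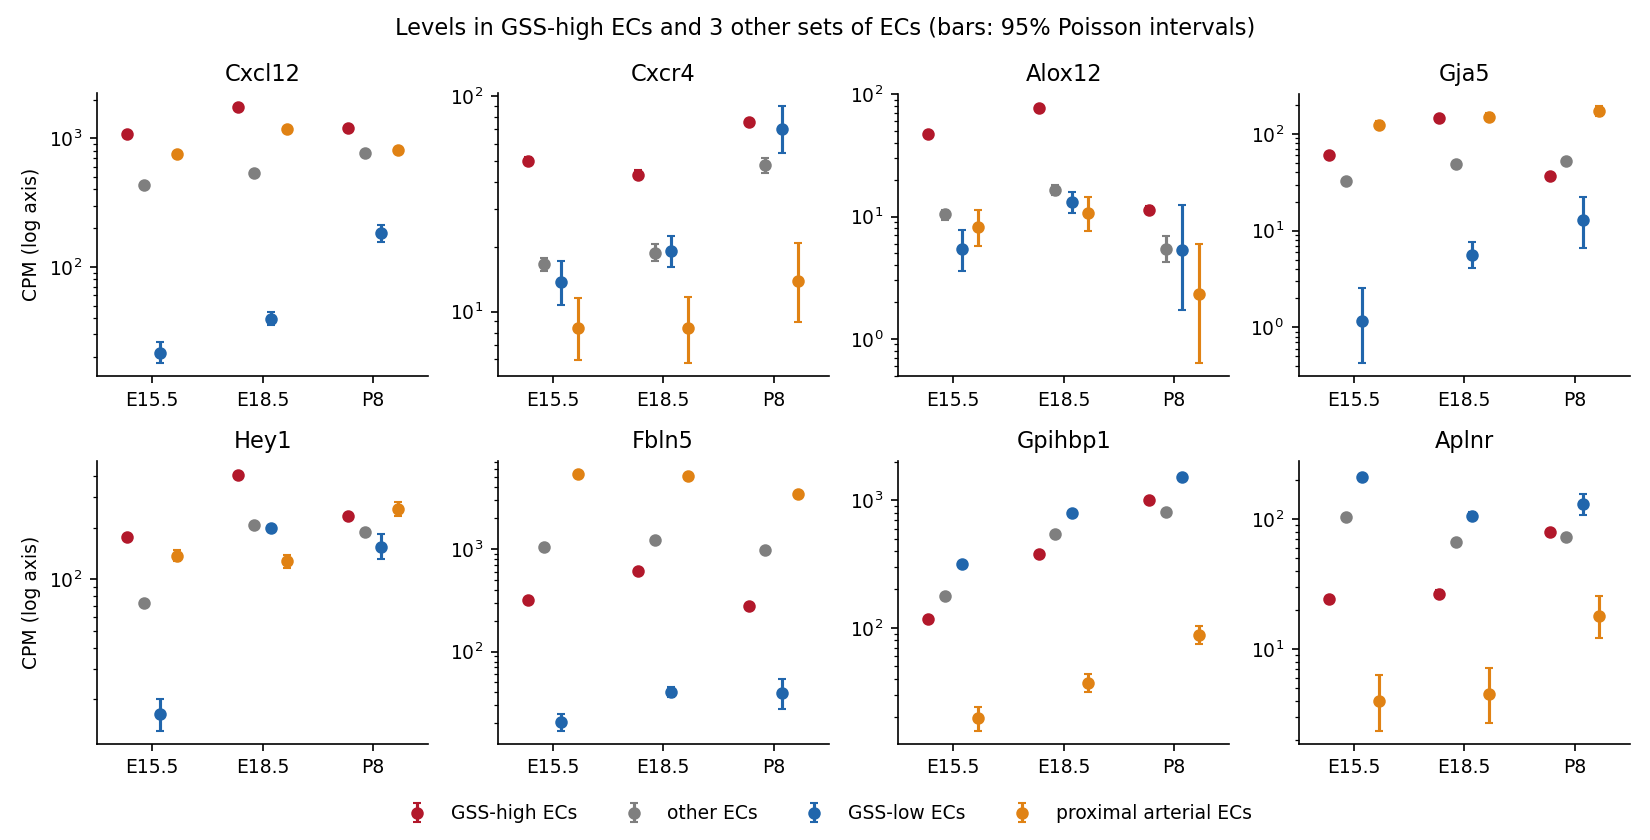
Levels in CPM (log axis) of 8 genes at E15.5, E18.5 and P8 in GSS-high ECs (red), all other ECs (grey), GSS-low ECs (blue) and proximal arterial ECs (orange), with exact Poisson intervals at 95%. Cxcl12 and Alox12 were highest in GSS-high ECs in all 3 libraries, and Gpihbp1 and Aplnr lay between the proximal arterial and the GSS-low values.

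Of 4067 genes compared, 29 (0.713%) were at least 2-fold higher in GSS-high than in GSS-low ECs in all 3 libraries and 17 (0.418%) at least 2-fold lower. Of the 29, Sox6 and Gm9946 had 0 UMIs in GSS-low ECs at P8, where the ratio rests on the added 0.5 CPM, and 27 remained with that 0 set to a floor of 3 counts per library. Within single libraries, E15.5 had 287 higher (7.06%) and 132 lower (3.25%) genes. E18.5 had 146 (3.59%) and 98 (2.41%), and P8 had 54 (1.33%) and 42 (1.03%), the 54 becoming 50 with the same floor. GSS-low ECs at P8 were few, with 224 cells at a median of 3596.5 UMIs. With E15.5 and E18.5 alone the counts were 103 and 59, and with only cells of 4000 to 8000 UMIs, of which 85 were GSS-low at P8, they were 78 and 30.

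Several arterial genes were in the higher group. Gja5, or connexin 40, was 60.1, 146 and 36.4 CPM in GSS-high ECs and 1.16, 5.61 and 12.8 in GSS-low ECs. It was no higher than in proximal arterial ECs, which held 124, 151 and 172 CPM. Of 13 arterial genes compared, Gja5, Alox12 and Atp13a3 among them, 12, 11 and 5 were at least 2-fold higher and 0, 0 and 1 lower, with medians of 3.03, 2.49 and 0.72 where the median of all genes was 0.10, 0.02 and 0.00. Over all other ECs, which hold the proximal arterial ECs, 4, 4 and 0 of 14 were at least 2-fold higher and 1, 2 and 4 lower, with medians of 0.76, 0.51 and -0.01. Of all 4013 genes compared there, 1.12%, 0.723% and 0.0748% were higher and 4.63%, 3.74% and 4.76% lower. The arterial list, like the lists below, was chosen with earlier results of these data known. A listed gene could also enter through its level in GSS-high ECs alone, so these counts are a description. Atp13a3, a transporter of polyamines, was 137, 266 and 150 CPM against 13.3, 12.9 and 27.7. Amd1, whose product acts in polyamine synthesis, was 133, 295 and 114 CPM against 24.1, 41.5 and 18.1. Of the stretches of 60 bases at its 3′ end, 81.5% also occur in other genes, pseudogenes among them, so its counts are uncertain. Alox12 was among the 29 genes, although its P8 level of 5.32 CPM in GSS-low ECs rested on 5 UMIs and the interval of the ratio of 1.02 ran from -0.14 to 2.72. Tm4sf1, an endothelial surface protein, had log2 ratios of 3.29, 2.85 and 0.76.

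Of 9 Notch pathway genes compared, 6, 2 and 0 were at least 2-fold higher and 0, 1 and 0 lower, with medians of 1.26, 0.87 and 0.17. Over proximal arterial ECs none of 9 was higher and 2 were lower in all 3 libraries, with medians of 0.31, 0.49 and -0.03. Of all genes compared there, 3.76% were higher and 4.55% lower in all 3. Hey1, a Notch target, was 176, 404 and 234 CPM in GSS-high ECs against 16.4, 198 and 155 in GSS-low ECs. The ligand Jag1 was 144, 73.4 and 22.9 CPM against 9.82, 9.27 and 16. The ligand Dll4 was 86.0, 208 and 208 CPM against 29.3, 114 and 256, and so was not higher at P8.

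Of 8 arterial transcription factors compared, 5, 3 and 1 were at least 2-fold higher and none lower, with medians of 1.21, 0.40 and 0.28. Over proximal arterial ECs 1 of 9 was higher and 1 lower in all 3 libraries, with medians of -0.05, -0.14 and -0.23. The shares of all genes were 3.76% higher and 4.55% lower. Over all other ECs the medians were 0.27, 0.30 and 0.05. Gata6 was at least 2-fold higher in all 3 libraries, at 90.0, 177 and 103 CPM against 15.4, 29.1 and 38.3. Sox17, the SoxF factor of arterial ECs, was 873, 1010 and 677 CPM against 193, 468 and 398, with log2 ratios of 2.17, 1.12 and 0.77. Sox6 was 101, 33.9 and 3.26 CPM in GSS-high ECs and 2.70 and 3.79 in GSS-low ECs, which had no Sox6 UMI at P8. A floor of 3 counts there is 3.19 CPM, so Sox6 was not shown to be 2-fold higher at P8. The long non-coding RNA Gm9946, at 6:117559697-117572329, likewise had 32.1, 100 and 6.13 CPM in GSS-high ECs and none in GSS-low ECs at P8, which gives it a level at least 1.92-fold higher there.

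Of 8 artery wall matrix genes compared, 5 were at least 2-fold higher in all 3 libraries, and in single libraries 5, 5 and 6 were higher and 1, 0 and 0 lower, with medians of 1.88, 2.12 and 1.37. Fbln5, which helps to assemble elastic fibres, was 317, 606 and 276 CPM against 20.6, 40.1 and 39.4, but 5340, 5150 and 3410 in proximal arterial ECs. Fbn1, Ltbp1, Ltbp4 and Fbln2, all parts of or linked to microfibrils, had mean log2 ratios of 2.56, 1.93, 2.26 and 1.54. Over all other ECs, 5 of 11 genes of this list were lower in all 3 libraries and none higher. The shares of all genes there were 2.89% lower and 0.0249% higher. Of 12 TGF-beta and BMP genes compared with GSS-low ECs, 9, 4 and 1 were at least 2-fold higher and none lower. Of 7 VEGF receptors and ligands, 4, 2 and 1 were higher and 2 in each library lower, with medians of 1.06, 0.01 and -0.28. The members higher in all 3 libraries were Tgfb2 and Vegfc. Tgfb2 was 178, 60 and 35.9 CPM against 22.7, 16.4 and 7.45. The lymphatic growth factor Vegfc was 148, 78.2 and 28.2 CPM against 20.6, 20.4 and 7.45. Both P8 levels in GSS-low ECs rested on few UMIs, as 3 counts were 3.19 CPM there. Cdkn1c, a cell cycle inhibitor, was 818, 641 and 134 CPM against 222, 88.5 and 51.1. Of 8 genes that the study names for vascular development in its distal arterial population, 5 were at least 2-fold higher in all 3 libraries and none lower. These were picked on the same libraries and are no independent evidence. Over proximal arterial ECs none of the 8 was higher and 2 were lower in all 3 libraries, with medians of 0.23, -0.47 and -0.62. Of all genes compared there, 3.76% were higher and 4.55% lower in all 3. Over all other ECs none of the 8 was higher or lower in all 3. Only 0.0249% of all genes were higher there and 2.89% lower, so this is no result about the 8.

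The 17 lower genes were of several kinds. Fabp4, a fatty acid carrier of capillary and venous ECs, was 315, 277 and 23.5 CPM against 1280, 592 and 1970. Aplnr, the apelin receptor, was 24.4, 26.8 and 80.5 CPM against 211, 106 and 131, with log2 ratios of -3.09, -1.96 and -0.70, and so was not 2-fold lower at P8. Its ligand Apln was lower in all 3 libraries, at 14.7, 19.1 and 69.0 CPM against 34.7, 73.2 and 143. The VEGF receptors Flt4 and Nrp2, both also found on lymphatic ECs, were lower with mean log2 ratios of -1.09 and -2.11. Of 4 lymphatic genes compared, 4, 3 and 1 were at least 2-fold lower and 0, 0 and 1 higher. Kdr, the main VEGF receptor of ECs, was 336, 393 and 491 CPM against 322, 675 and 720. Of 11 cell cycle genes, 8, 5 and 1 were at least 2-fold lower and 0, 0 and 1 higher, while both populations had met the same limit on Mki67 and Top2a. Of 11 basement membrane genes, 1, 3 and 4 were lower and 1, 1 and 0 higher, and the list median passed from 0.29 to -0.65 and -0.60. The 9 general capillary genes as a list had medians of 0.00, -0.57 and 0.19, with 3, 2 and 0 at least 2-fold lower and 1, 1 and 0 higher. Of 7 aerocyte genes, 2, 4 and 1 were lower and 1, 0 and 0 higher, with medians of -0.47, -1 and -0.24.

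**Figure D3:**
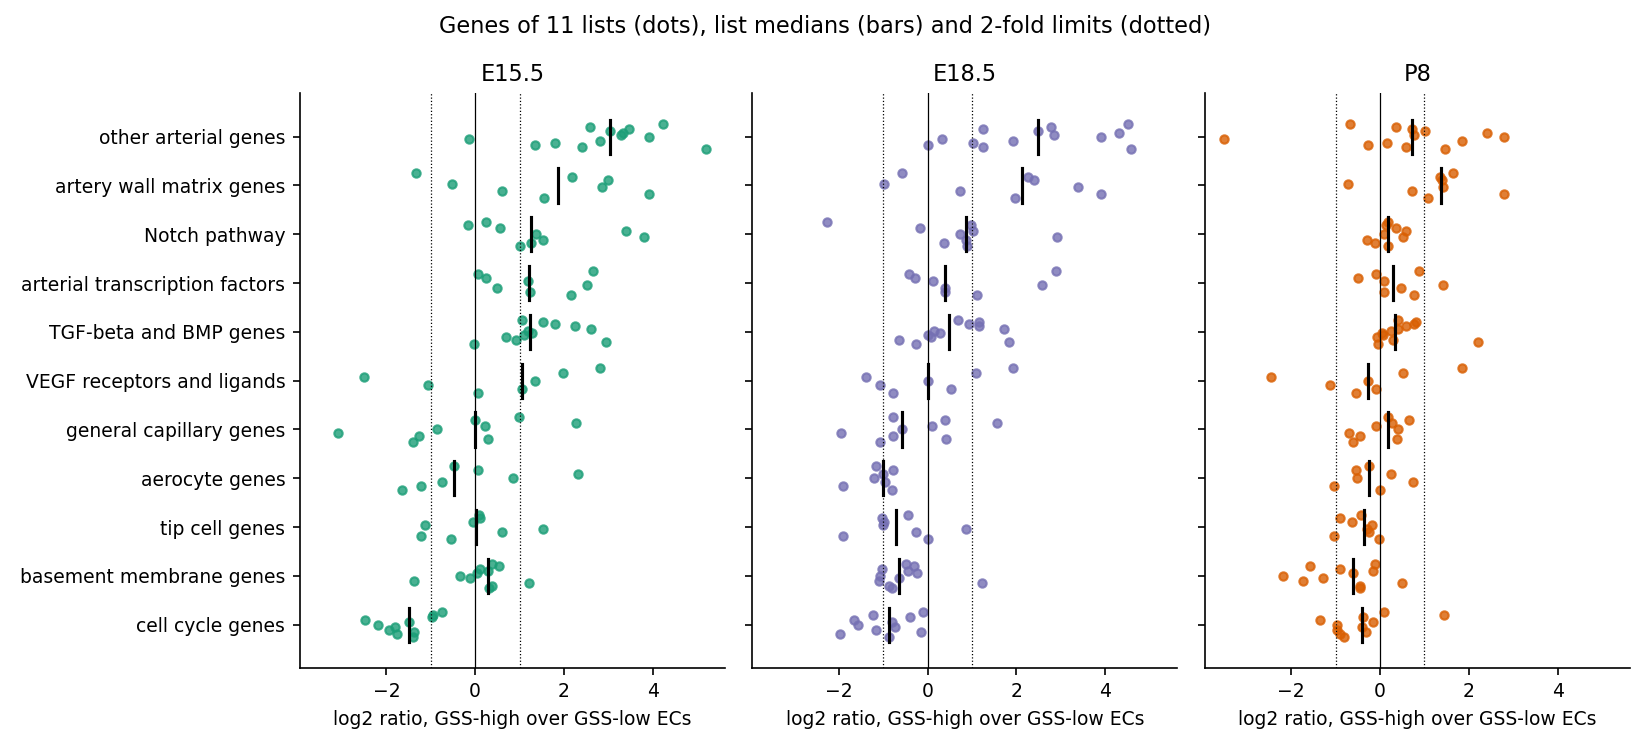
Log2 ratio of GSS-high over GSS-low ECs (x axis) for the genes of 11 lists (y axis) that reached 50 CPM in 1 of these populations, with 1 panel per library; dots are genes, black bars list medians and dotted lines the 2-fold limits. From the earliest to the latest library the median of the arterial list passed from 3.03 to 0.72, and that of the cell cycle list from -1.5 to -0.40.

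The levels of 8 genes were followed along the summed count. The limits on Cytl1, Gkn3, Eln, Mki67 and Top2a were applied to the thinned counts here. The groups thus also held cells that these limits left out before thinning, and the part of those cells was not tested. With cells thinned to 2000 UMIs and grouped by a thinned sum of 0, 1, 2, 3 and 4 or more, E15.5 cells had 68.4, 250, 468, 623 and 1500 CPM of Cxcl12. In E18.5 cells the values were 69.9, 222, 423, 897 and 2600 CPM, and in P8 cells 218, 321, 540, 685 and 1730 CPM. Cxcl12 was higher in every next group in each library, which is no independent result, since the sum holds genes already named for tracking Cxcl12. Gja5 ran from 3.94 to 74.5 CPM and from 7.05 to 205 CPM in the embryonic libraries, while at P8 it was 9.46, 8.12, 15.7, 27.3 and 49.9. Gpihbp1 was lower along the same groups, passing from 303, 783 and 1420 CPM at a sum of 0 to 63.8, 228 and 912 CPM at 4 or more. Aplnr passed from 172, 98.1 and 97.8 CPM to 11.8, 12.4 and 77.8 CPM, with no steady order of the groups between at P8. Car4 was 148, 157, 154, 133 and 37.7 CPM at E18.5 and 361, 328, 300, 334 and 165 at P8, so that it was lower mainly in the uppermost group.

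**Figure D4:**
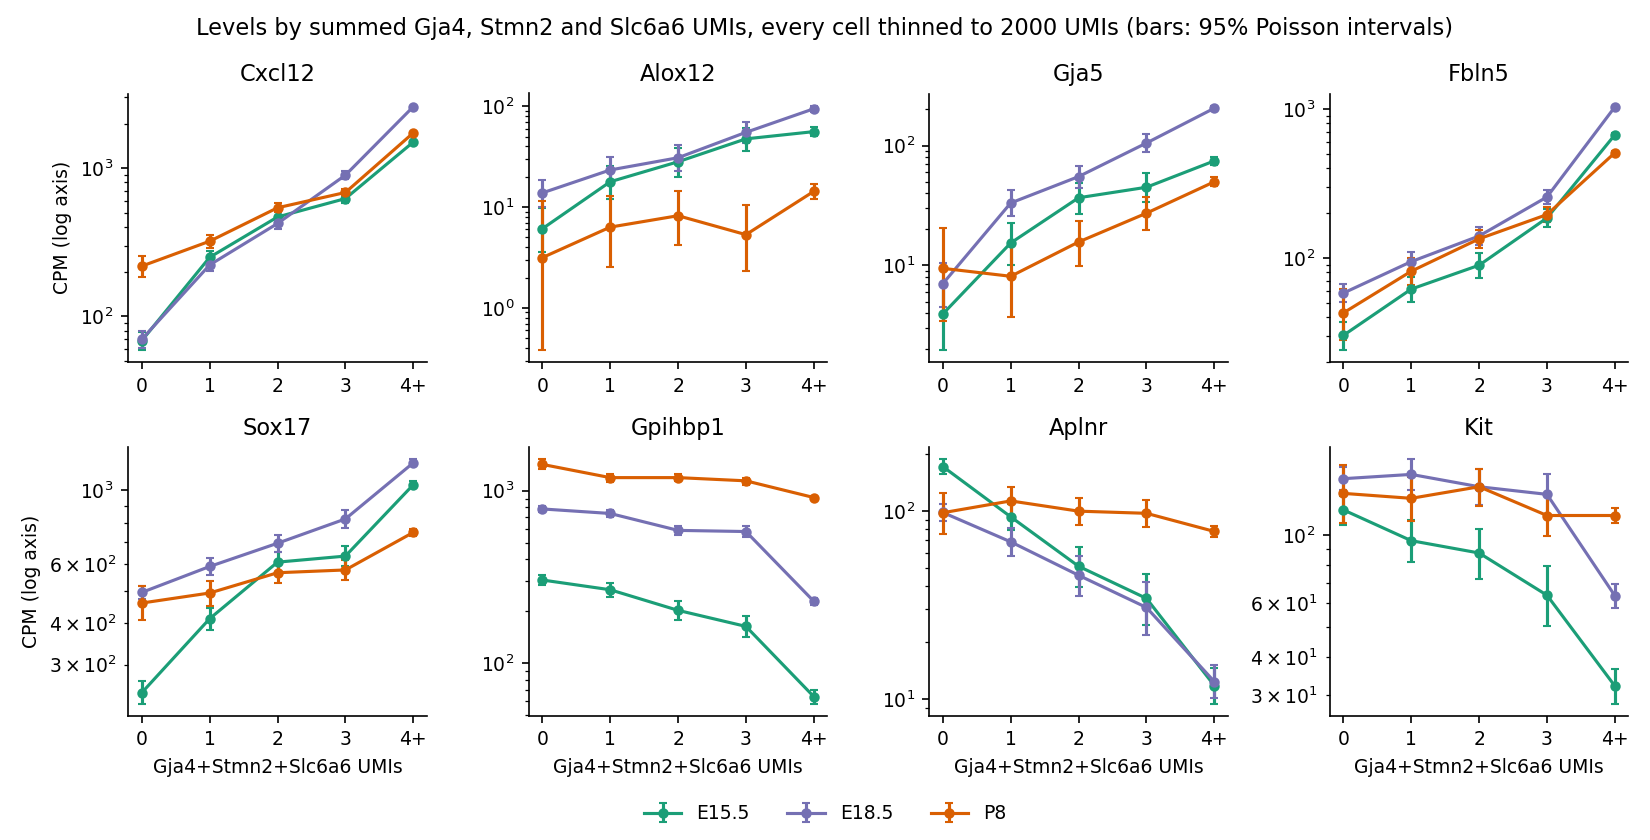
Levels in CPM (log axis) of 8 genes outside the limits in ECs thinned to 2000 UMIs, by the thinned sum of Gja4, Stmn2 and Slc6a6 (x axis), with exact Poisson intervals at 95%; lines are the libraries at E15.5 (green), E18.5 (purple) and P8 (orange). Cxcl12 and Fbln5 were higher in each next group in all 3 libraries, and Gpihbp1 and Aplnr had shallower slopes at P8. The limits on Cytl1, Gkn3, Eln, Mki67 and Top2a were applied to the thinned counts.

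The GSS-high ECs also differed among themselves. Of 3954 genes compared, 16 (0.405%) were at least 2-fold higher in all 3 libraries in cells with a sum of 16 or more than in cells with 4 to 7, and 1 (0.0253%) was lower. Cxcl12 was 1370, 2540 and 1410 CPM in the upper cells and 242, 388 and 535 in the lower ones. Fbln5 was 430, 909 and 327 CPM against 44.0, 139 and 98.5. Bmx, a kinase of arterial ECs, was 65.1, 67.2 and 30.4 CPM against 6.08, 13.2 and 14.2, and Nuak1, Rnase1, Ptprr, Serpinf1 and Gm9946 were among the others. Apoe was the lower gene, at 17.0, 13.5 and 6.84 CPM against 60.4, 55.8 and 64.5. The capillary genes Gpihbp1 and Aplnr were less far apart at P8 than in the embryo. Gpihbp1 had log2 ratios of -1.96, -1.55 and -0.48 and Aplnr of -2.57, -1.95 and -0.37. At P8 Car4 was 295 CPM in the upper against 284 in the lower cells, although the uppermost thinned group had the lowest Car4 level. Markers of other cell types moved with this split. Lyz2 was 0.446, 24.4 and 0.993 CPM in the upper cells against 1.22, 13.3 and 88.2 in the lower ones, and at P8 Tyrobp was 0.175 against 7.68 and Fcer1g 0.263 against 7.68. Sftpc was 0.617, 348 and 16.7 CPM against 0.608, 23.7 and 706. The globin gene Hbb-bs was 234, 287 and 614 CPM against 8.31, 2250 and 138, and the lymphatic gene Ccl21a 5.69, 63.5 and 18.5 CPM against 86.1, 288 and 0. Their part in the split was not tested. Median depth was 7441, 4825 and 4304.5 UMIs at a sum of 4 to 7, against 7555, 5527.5 and 5738.5 at 16 to 31 and 9434, 7593 and 10510 at 32 or more, and the part of depth was not tested. Gpihbp1 was found less often beside Gja5. Gpihbp1 was found in 9.66% of thinned E15.5 cells with a Gja5 UMI and 16.6% of those without. The shares were 17.0% and 41.1% for E18.5 cells, and 50% (45.2% to 54.8%) and 74.3% (73.2% to 75.4%) for P8 cells. Beside Alox12, Gpihbp1 was found in 9.57%, 26.6% and 73.6% of cells, against 16.5%, 37.3% and 72.7% of those without Alox12, and the P8 share without Alox12 lay within the interval of that with it (66.0% to 80.3%).

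Proximal arterial ECs numbered 623, 446 and 195, and 98.6%, 95.7% and 92.3% of them had a sum of at least 4 of the 3 chosen genes. Of 4177 genes compared, 157 (3.76%) were at least 2-fold higher in GSS-high than in proximal arterial ECs in all 3 libraries and 190 (4.55%) lower. The absence of Cytl1, Gkn3 and high Eln was part of the limits, so these ratios are a description. Among the lower genes were the Wnt antagonists Sfrp1 and Sfrp2, the latter at 5.72, 0.416 and 0.205 CPM against 778, 226 and 114. Mgp, an inhibitor of calcification, was 38.1, 32.7 and 23.4 CPM against 3090, 2480 and 6320. Lox, which cross-links collagen and elastin, was 3.58, 3.32 and 0.718 CPM against 257, 245 and 162, and Krt18, Ephx2, Mfap5 and Ctsh completed the 8 lowest. Mean log2 ratios of these 8 genes ran from -7.42 to -5.81. Of 11 artery wall matrix genes, 9 were lower in all 3 libraries.

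The genes with the highest ratios over proximal arterial ECs were of several kinds. Esm1, a marker of sprouting ECs, was 15.2, 18.2 and 94.3 CPM against 0.443, 0.254 and 9.85. Kit, found on general capillary cells, was 52.4, 86.3 and 119 CPM against 6.87, 6.59 and 10.4. Col4a2, a chain of basement membrane collagen, was 683, 506 and 678 CPM against 79.1, 58.8 and 62.6. The sodium channel relative Scn7a was 136, 1060 and 1130 CPM against 13.7, 113 and 115, and the Wnt inhibitor Wif1 was 5.38, 26.2 and 72.7 CPM against 0.222, 1.77 and 8.69. Edil3, Ccdc85a and Nckap5 were the rest of the 8 highest. None of the 8 was among the 29 genes higher than in GSS-low ECs. Those 29 were only 0.713% of the genes compared, so this is no result about the 8. Of 7 aerocyte genes 4 and of 9 general capillary genes 3 were higher in all 3 libraries, and 1 gene of each list was lower, at E15.5 alone. Of 12 basement membrane genes 3 were higher and none lower in all 3, but in single libraries 3, 3 and 3 were higher and 2, 1 and 3 lower, with medians of 0.21, 0.33 and -0.41. Of all genes compared, 6.22%, 7.95% and 8.28% were higher in single libraries and 9.29%, 7.37% and 8.52% lower.

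Against all other ECs together, a single gene of 4013 (0.0249%) was at least 2-fold higher in all 3 libraries and 116 (2.89%) were lower. The higher gene was 8430408G22Rik, at 6:116650609-116652794, with 309, 968 and 209 CPM in GSS-high ECs against 81.6, 344 and 101. Most of the 12 lowest were cell cycle genes, such as Hist1h1b at 2.91, 2.40 and 1.56 CPM against 119, 114 and 148 and Nusap1 at 3.76, 1.42 and 0.718 CPM against 133, 65.9 and 112. Cycling ECs, 2037, 579 and 475 in number, were placed among the other ECs by the limits, so this difference was fixed by the choice of cells. The other ECs also held cells rich in the 3 chosen genes, with 55.4%, 27.8% and 54.8% of them at a sum of at least 4.

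Across time, GSS-high ECs at P8 were compared with those at E15.5. Their make-up differed between these libraries. Gpihbp1 was found in 15.9% of thinned cells at E15.5 and 72.7% at P8, and Car4 in 0.0207% and 19.8%. A change of level within cells cannot be told apart here from a change in the mixture of cells. Of 3735 genes, 620 (16.6%) were at least 2-fold higher at P8 and 188 (5.03%) at least 2-fold lower, and the median log2 ratio was 0.19. In the other ECs the median of the same genes was 0.23. When each ratio was taken relative to the median, the counts were 482 and 270.

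Capillary genes were among the higher ones. All 9 general capillary genes were at least 2-fold higher at P8, with a median log2 ratio of 1.70, and 1.89 in the other ECs. Gpihbp1 was 118, 377 and 1010 CPM. Of 7 aerocyte genes, 6 were higher, with a median of 4.22, and 3.53 in the other ECs. Car4 was 0.0923, 90.6 and 291 CPM and Ednrb 33.6, 155 and 181 CPM. Sema3c, a secreted guidance protein, was 0.485, 19 and 435 CPM. Fmo1, a flavin mono-oxygenase, was 1.18, 107 and 589 CPM. The homeodomain protein Hopx was 1.5, 55.2 and 262 CPM, and Abi3bp, Aard, Adam23 and Fmo2 completed the 8 highest that were higher at both steps. Some levels at E15.5 were very low, below 0.5 CPM for Car4 and Sema3c, and such ratios depend on the added 0.5 CPM. Hopx also stood in the epithelial list with Sftpc. The 2 epithelial genes compared were both higher at P8, with a median of 6.62, and 6.41 in the other ECs. The part of epithelial transcripts was not tested.

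Immediate-early and stress genes were also higher at P8. All 12 were at least 2-fold higher at P8, with a median of 3.11, and 3.22 in the other ECs. Fos was 222, 1100 and 2340 CPM, and Atf3 47.5, 101 and 721 CPM. These genes respond to tissue dissociation as well as to signals in the animal, and their part in the other differences was not tested. Of 8 MHC class I and interferon-type genes, 7 were higher, with a median of 1.74, and 2.17 in the other ECs.

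Of 4 fetal growth genes compared, 3 were at least 2-fold lower at P8, with a median of -3.99, and -3.75 in the other ECs. The imprinted gene Peg3 was the fourth and was higher, with a log2 ratio of 1.69. The growth factor Mdk was 315, 88.6 and 6.87 CPM, and the imprinted RNA H19 763, 384 and 58.5 CPM. The insulin-like growth factor binding proteins Igfbp2 and Igfbp3 were 119, 8.55 and 1.68 CPM and 137, 62.7 and 2.81 CPM. Col18a1, a basement membrane collagen, was 556, 139 and 19.6 CPM. Gm10320, Dkk2, Serpinf1 and Lpar4 were the rest of the 8 lowest. Arterial genes went both ways. Of 13 arterial genes 2 were higher and 4 lower, of 8 Notch pathway genes 2 higher and 1 lower, and of 8 arterial transcription factors 3 higher and 1 lower. Of all genes compared, 16.6% were higher and 5.03% lower. Of the 8 vascular development genes that the study names, none was higher and 4 were lower, with a median of -0.78, and -0.03 in the other ECs. Jag1, Vegfc, Tgfb2 and Alox12 had log2 ratios of -2.63, -2.37, -2.29 and -2.02, and Efnb2, Dll4 and Sema3g of 1.40, 1.27 and 1.21. Cxcl12, Gja5 and Hey1 were highest in the E18.5 library, so the ratio of P8 over E15.5 hides opposite steps. Cxcl12 had a log2 ratio of 0.71 from E15.5 to E18.5 and -0.53 from there to P8, Gja5 1.28 and -1.99, and Hey1 1.19 and -0.79.

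For some genes the ratio in GSS-high ECs was far from that in the other ECs. The make-up of both populations differed between libraries, and its part in these gaps was not tested. Aplnr was 1.70 higher at P8 on the log2 scale in GSS-high ECs and had a ratio of -0.53 in the other ECs. Its gap of 2.23 was the widest on the higher side among the genes compared that were higher at P8. Bmp6 had ratios of 4.96 and 2.91, and Pde3a, Prdm8, Car4 and Hopx followed with gaps of 1.96, 1.92, 1.90 and 1.87. Car4 lay below 0.5 CPM in GSS-high ECs at E15.5, so its gap depends on the added 0.5 CPM. On the lower side, the Wnt modulator Dkk2 was 165, 38.0 and 2.46 CPM in GSS-high ECs and 130, 137 and 49.3 in the other ECs. The retinol-binding protein Rbp7 was 198, 111 and 13.9 CPM, against 75.9, 39.0 and 66.3. The actin regulator Gsn was 65.5, 71.8 and 4.70 CPM, against 30.7, 62.7 and 31, and Sorbs2, Serpinf1 and Fabp4 had gaps of -3.96, -3.29 and -2.97. The other ECs included the proximal arterial ECs, in which Dkk2 was 245 and Serpinf1 159 CPM at P8.

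**Figure D5:**
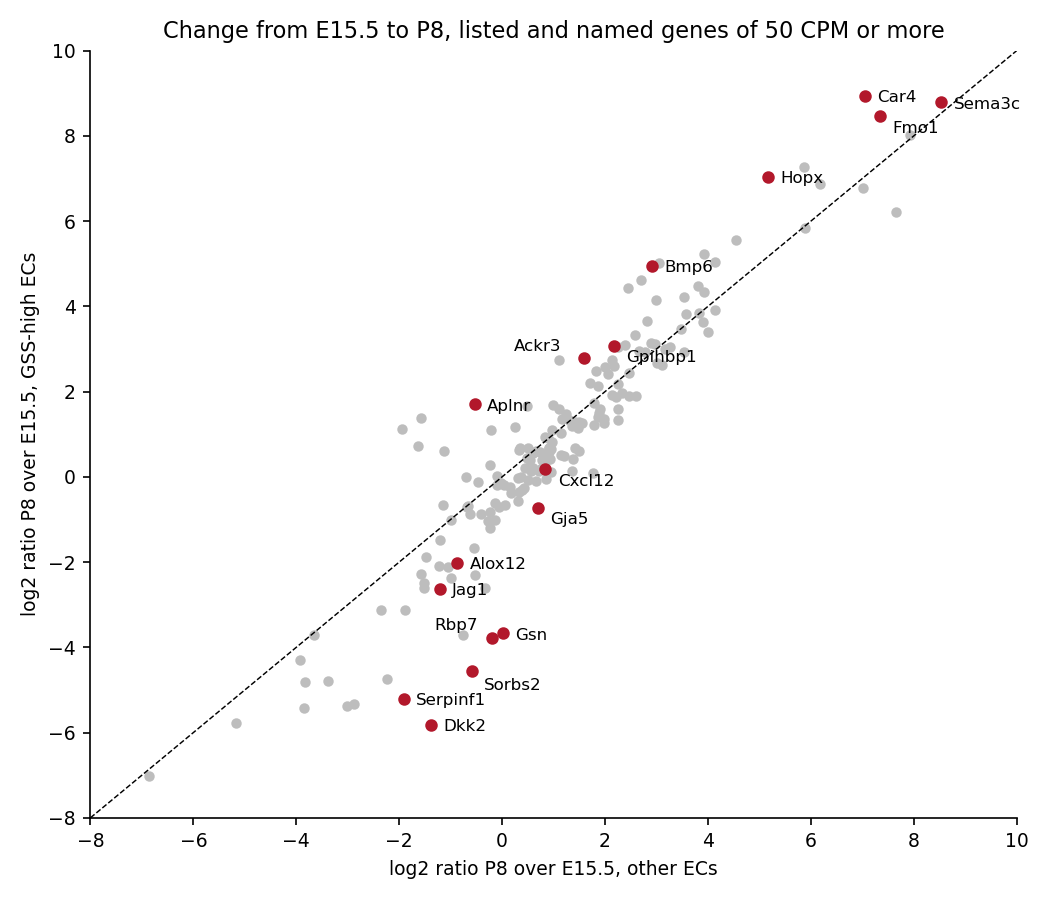
Log2 ratio of P8 over E15.5 in GSS-high ECs (y axis) against that in all other ECs (x axis) for listed and named genes that reached 50 CPM in GSS-high ECs; red dots carry gene names and the dashed line marks equal change. Aplnr and Bmp6 lay above the line by 2.23 and 2.05, and Dkk2 below it by 4.41.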

How the data were processed

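The authors sequenced 3′ tags of pooled lungs, ran CellRanger on mm10 (3.1 in the submitters' processing notes, 3.0.2 in the file headers of the E15.5, E18.5 and P8 libraries) and deposited UMI counts per gene and cell, not normalized. The E15.5, E18.5 and P8 libraries held 117522172, 65056925 and 63746333 UMIs in 12789, 10020 and 9069 barcodes, which set the precision of the intervals. Files of counts corrected for free RNA were not used. Samples were grouped by their labels.

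Cells were selected by the limits given above, and levels, ratios, exact Poisson and Clopper-Pearson intervals were computed in Python 3.11.15 with numpy 2.4.6, scipy 1.17.1 and pandas 2.3.3. Mitochondrial, ribosomal protein, haemoglobin, sex-linked marker genes and Gm42418 were left out of the comparisons. Cells were thinned at random to 2000 UMIs with seed 1, and shallower cells left out: 8, 66 and 99 of the GSS-high and 3, 54 and 45 of the GSS-low ECs. Doublets were called with Scrublet in scanpy 1.11.5 as an alternative only and were otherwise kept. The ratio was tested on counts simulated from a pooled profile with set fold changes. No cells were chosen on their own counts there, so the effect of that choice was not tested. Genes were placed, and their 3′ ends compared with all other transcripts in stretches of 60 bases, with GENCODE M21.

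Named genes were those with the largest mean log2 ratio among genes past 2-fold in all 3 libraries (12 against other ECs, 8 against proximal arterial ECs), the 8 largest over time in each direction that moved alike at both steps, the 6 with the widest gap to the other ECs, and members of 27 lists. The comparison with GSS-low ECs as a result of its own, and that within GSS-high ECs, were added after values were seen. Members, limits and lists were chosen with earlier results of these data known. Other thresholds, depths, scalings, filters and comparison cells were tried as alternatives.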

Additional observations from a re-analysis of the deposited data

Results flagged for a closer look

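The limits also took cells in the 3 libraries for which they were not written. At E13.5, where 168 ECs were found among the sorted cells, 93 (55.4%, exact interval 47.5% to 63.0%) met them, and Cxcl12 was 1270 CPM in these cells. In the whole lungs at E18.5, 502 of 1824 ECs (27.5%) of the library labelled control and 1187 of 2721 (43.6%) of the library labelled null met them. Cxcl12 went against these 2 labels, at 12.2 CPM (9.31 to 15.6) in the cells of the library labelled control and 1010 CPM (996 to 1030) in those of the library labelled null, and the names of the deposited files also give each of these libraries the other genotype, so no direction between the genotypes is drawn. Alox12 was 64.3 and 72.2 CPM in these cells, against 13.2 and 12 in the other ECs of the same libraries, and Gja5 118 and 178 CPM against 14.9 and 32. Ptprc, which encodes CD45, moved with the same cells, at 61.9 CPM against 21.4 in the library labelled control and 21.2 against 13 in that labelled null. Its part was not tested. In the E13.5 cells Alox12 was 21.9 CPM against 20.8, a log2 ratio of 0.07 with a counting interval from -1.18 to 1.34. These 3 results are listed because the cells lie outside the libraries compared.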

How the results depend on the processing

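Shares of ECs at E15.5, E18.5 and P8 were 56.1%, 63.4% and 83.8% with a sum of at least 3, 50.5%, 52.1% and 75.9% with at least 6, and 41.3%, 43.9% and 65.1% after thinning, and stayed within their counting intervals with at least 1000 genes, no lower mitochondrial limit or Scrublet calls left out. Scrublet called 3.38% of cells at E15.5 and none of 9542 and 8451 at E18.5 and P8, where it has not worked, so doublets there were not assessed. The count of genes higher than in other ECs was 2 with a sum of at least 6, 3 with cells of 4000 to 8000 UMIs, 3 with mean per-cell CPM, 14 at E15.5 and E18.5 alone and 29 against GSS-low ECs. The count lower was 72 in that depth range, 219 with a filter of 20 CPM and 17 against GSS-low ECs. Against GSS-low ECs, the 29 higher and 17 lower genes became 78 and 30 in the depth range, 44 and 32 at 20 CPM and 103 and 59 without P8, and the lower count was 8 with a pseudocount of 5 CPM. Over time, 962 and 335 genes passed at 20 CPM. The causes were not tested beyond the number of genes or libraries that each setting changes. The mean log2 ratio of Sfrp2, -4.85 over other ECs, was 0.30 over GSS-low ECs, where Sfrp2 was at most 5.72 CPM in both populations. Mean log2 ratios of 22 single genes gave 132 values, taken over other ECs or, in the GSS-low alternative, over GSS-low ECs. Of these, 49 changed by less than 0.1, 82 by more, and that of Sfrp2 over GSS-low ECs reversed. A reversal was counted only where the main ratio was at least 2-fold. Car4, under 2-fold, passed from -0.22 to 0.12 with a pseudocount of 5 CPM. Against GSS-low ECs all 22 moved or reversed, such as Gja5 from 0.64 to 3.75 and Ube2c from -5.24 to -0.24. The remaining 57 of 83 counts and shares stayed within 1.5 times or their interval. No paired analysis was possible because each time point had 1 library.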
